A study of Mus musculus with 2 samples.

Results

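The 6 genes Pcsk1, Pcsk2, Pcsk1n, Scg5, Cpe and Pam, which encode the prohormone processing machinery, were examined across the cell types of mouse islets. They were chosen by symbol, and each of the 6 matched 1 of the 27998 genes in the count matrices. Pcsk1 and Pcsk2 encode the prohormone convertases, Pcsk1n and Scg5 encode the small proteins that bind them, Cpe encodes a carboxypeptidase, and Pam encodes the amidating enzyme. Islet cells were profiled by droplet-based 3′ single-cell RNA-Seq in WT mice and in GKO mice, which carry a homozygous germline knockout of the ghrelin gene Ghrl and came from crosses of heterozygotes. Both groups were littermates on a C57BL/6N background, 8 weeks old and fed standard chow ad libitum. Islets of 4 mice were pooled per genotype, live cells were sorted, and 1 library was made from each pool, so that n = 1 per genotype and no test between genotypes was possible. Intervals given below are 95% intervals, exact unless stated otherwise. Those of levels and of ratios cover counting error only, not the variation between barcodes of a pool. None of the intervals covers the variation between mice.

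Islet hormones are made as longer precursors that enter secretory granules and are cut there after pairs of basic residues. PCSK1 and PCSK2 make these cuts, carboxypeptidase E then trims the basic residues from the new ends, and PAM turns a glycine exposed at the end into an amide. The product of Scg5, 7B2, escorts PCSK2 to the granule and holds it inactive until then, and the product of Pcsk1n, proSAAS, inhibits PCSK1.

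The cut sites themselves are shown by the coding sequences around 8 paired basic residues of the precursors of the 4 islet hormones, since the substrate differs between the cell types in which the enzymes were counted. Each is printed 5′ to 3′ as 3 codons, the codons of the basic pair in capitals, and 3 further codons, from GENCODE transcripts on the GRCm38 assembly (mm10).
Ins1, B chain to C-peptide: cccaagtccCGCCGTgaagtggag
Ins2, B chain to C-peptide: cccatgtccCGCCGTgaagtggag
Ins1, C-peptide to A chain: gcccggcagAAGCGTggcattgtg
Ins2, C-peptide to A chain: gcccagcagAAGCGTggcattgta
Gcg, before glucagon: aatgaagacAAACGCcactcacag
Gcg, after glucagon: atgaacaccAAGAGGaaccggaac
Sst, before somatostatin-14: ccccgggaaCGCAAAgctggctgc
Ppy, after pancreatic polypeptide: aggtatgggAAGAGAgccgaggag

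Both insulin genes carried arginine-arginine at the junction of B chain and C-peptide, the classical PCSK1 site, and lysine-arginine at the junction of C-peptide and A chain, the classical PCSK2 site. The 2 Ins1 sites lie in exon 2 of 2 at chr19:52264777-52264800 and chr19:52264870-52264893 on the plus strand. Those of Ins2 lie on the minus strand in exon 2 of 3, at chr7:142679357-142679380, and in exon 3, at chr7:142678770-142678793. Glucagon is bracketed by lysine-arginine pairs on the minus strand. The first lies in exon 3 of 6 at chr2:62478644-62478667, and the window of the other runs from exon 3 into exon 4, between chr2:62476958 and chr2:62478574. The somatostatin precursor held a single basic pair, arginine-lysine, in exon 2 of 2 at chr16:23889765-23889788 on the minus strand. In Ppy, on the minus strand, a glycine codon stands directly before the lysine-arginine pair, the arrangement that PAM acts on. That window runs from exon 2 into exon 3 of 4, between chr11:102100262 and chr11:102100522. Of all precursors searched, 2 of 7 pairs in Gcg, 1 of 2 in Ppy, 1 of 2 in Pyy, 1 of 2 in Npy and 1 of 3 in Iapp followed a glycine, and none of the 2 pairs in either insulin gene or the 1 in Sst did.

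The WT library held 158067110 UMIs, counts of unique transcript molecules, in 7792 cell barcodes (median 13934 per barcode), and the GKO library held 103511757 in 7289 (median 10521). Ghrl itself gave 43634 UMIs in WT, of which 42984 came from 6 barcodes, and 280 in GKO, of which 276 came from 1. After removal of barcodes under 500 genes or over 10% mitochondrial UMIs, 7100 remained in WT and 6346 in GKO. Each was assigned to the islet hormone that took at least 10% of its UMIs. In WT and GKO, 2265 and 872 barcodes were led by insulin (Ins1 plus Ins2), 1048 and 1397 by glucagon, 1414 and 1003 by somatostatin, and 717 and 669 by Ppy, while 1656 and 2405 had no leading hormone and are called nonendocrine. That name follows from the rule only, and the class is not free of endocrine cells. It held the barcodes rich in Ghrl, and in 93 and 89 of its barcodes a hormone lay at most 2 percentage points under the 10% limit. Levels are given as CPM, the UMIs of a gene scaled to a class total of 1000000 UMIs. Of the markers of each cell type, 3 of 4 for delta and 2 of 3 for gamma cells were highest in the class that bears their hormone in both libraries, and 5 of 6 beta markers in WT and 6 of 6 in GKO were. These counts include the hormone genes, whose place was set in advance by the rule for the classes. Apart from them, the markers highest in their class in both libraries were Rbp4 and Ghsr for delta, Pyy for gamma, and Nkx6-1, Slc2a2 and Iapp for beta cells. The delta marker Hhex was highest in ductal and the gamma marker Fxyd2 in macrophage barcodes. Among alpha markers, Gcg, Irx2 and Ttr were highest in glucagon-led barcodes. The beta marker Mafa reached only 2.21 and 4.24 CPM in insulin-led barcodes of WT and GKO. Barcodes in which another hormone held at least 2% of UMIs made up 18.7% and 19.2% of the insulin-led, 22.8% and 17.7% of the glucagon-led, 56.4% and 50.1% of the somatostatin-led and 25.4% and 21.2% of the Ppy-led class in WT and GKO. The libraries shared 18 barcode sequences.

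Pcsk1, the convertase that opens the processing of proinsulin, was the member most restricted to 1 cell type. The gene lies on chromosome 13 (75089826 to 75134861, plus strand). WT insulin-led barcodes held 171 CPM of Pcsk1 (169 to 174), and those of GKO held 189 (185 to 194). Somatostatin-led barcodes came next with 51.3 (48.0 to 54.9) and 39.2 (35.5 to 43.0), followed by Ppy-led barcodes with 23.9 (21.6 to 26.3) and 25.9 (23.4 to 28.6). Glucagon-led barcodes were lowest at 4.69 (3.64 to 5.95) and 3.95 (3.10 to 4.96). The insulin-led level was thus 36.5-fold the glucagon-led level in WT and 47.9-fold in GKO, and the order of the 4 classes was the same in both libraries.

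Because insulin UMIs were also counted in the other classes, Pcsk1 was also set against insulin UMIs. The ratio was 0.288 Pcsk1 UMIs per 1000 insulin UMIs in insulin-led barcodes of WT and 0.330 in GKO. Somatostatin-led barcodes held 7.71 (7.20 to 8.25) and 6.46 (5.87 to 7.11), and Ppy-led barcodes held 3.57 (3.23 to 3.93) and 5.59 (5.06 to 6.16). Insulin also enters the rule for the classes, so these ratios are a description. Glucagon-led barcodes had 0.691 (0.537 to 0.877) and 0.799 (0.628 to 1.00), from only 68 and 74 Pcsk1 UMIs. When barcodes with another hormone at 2% or more were left out, Pcsk1 in glucagon-led barcodes was 1.37 CPM in WT and 0.918 in GKO. In somatostatin-led barcodes it was then 58.1 and 44.1, and in Ppy-led barcodes 25.2 and 26.3, close to the values with all barcodes. Low-level Pcsk1 in the somatostatin-led and Ppy-led classes therefore did not depend on barcodes with a mixed hormone content, whereas such barcodes held most Pcsk1 UMIs of the glucagon-led class, of which 14 of 68 in WT and 13 of 74 in GKO remained without them.

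Counted per barcode at an equal depth of 5000 UMIs, Pcsk1 was detected in 55.1% of insulin-led barcodes in WT (53.1 to 57.2) and 55.2% in GKO (51.9 to 58.6). The share was 19.4% and 16.3% in the somatostatin-led, 10.1% and 9.15% in the Ppy-led and 1.06% and 1.45% in the glucagon-led class. Macrophage-marker barcodes, used as a reference outside the hormone-led classes, gave 0 of 192 in WT, with an exact upper bound of 1.90%, and 1.16% in GKO (0.379 to 2.69). At this depth the glucagon-led and macrophage intervals overlapped in both libraries. Without thinning, 96.0% of insulin-led barcodes in both libraries held a Pcsk1 UMI at median depths of 37124 and 35811 UMIs, against 0.493% and 1.75% of macrophage-marker barcodes at 10443 and 8993. The unthinned glucagon-led shares were 4.87% (3.64 to 6.35) in WT and 3.58% (2.67 to 4.69) in GKO at medians of 12502.5 and 12174 UMIs, above the macrophage shares in value, with intervals that were separate in WT and overlapped in GKO (0.757 to 3.41 in macrophages).

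Pcsk2, the convertase that releases glucagon and completes the cleavage of proinsulin, was highest where Pcsk1 was lowest. It lies on chromosome 2 (143546156 to 143816285, plus strand). Glucagon-led barcodes held 4579 CPM in WT and 4149.7 in GKO, somatostatin-led barcodes 2526 and 2330.3, Ppy-led barcodes 2027 and 1868, and insulin-led barcodes 1544 and 1541. Every class expressed it strongly, since the highest level was 2.97-fold the lowest in WT and 2.69-fold in GKO. At 5000 UMIs per barcode, at least 1 Pcsk2 UMI was found in 99.7% of insulin-led barcodes and in 100% of glucagon-led barcodes in WT, against 11.5% of macrophage-marker barcodes.

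Set against each other within the same barcodes, the 2 convertases separated the cell types without any scaling to a total. Insulin-led barcodes held 11.1 Pcsk1 UMIs per 100 Pcsk2 UMIs in WT (10.9 to 11.3) and 12.3 in GKO. Somatostatin-led barcodes held 2.03 (1.90 to 2.17) and 1.68 (1.52 to 1.85), and Ppy-led barcodes 1.18 (1.07 to 1.30) and 1.39 (1.25 to 1.53). In glucagon-led barcodes, where the precursor is cut to glucagon, the ratio was 0.102 (0.0795 to 0.13) and 0.0952 (0.0747 to 0.120). The 4 intervals did not overlap in WT. The order was the same in GKO, where the somatostatin-led and Ppy-led intervals touched. Efficiencies of capture can differ between transcripts, so these ratios compare classes and do not give the relative abundance of the enzymes.

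Pcsk1n, which encodes proSAAS, lies on chromosome X (7919822 to 7924410, plus strand). Its levels were 5634 CPM in WT and 6303 in GKO in glucagon-led barcodes, 2577 and 2738 in somatostatin-led, 2466 and 2693 in Ppy-led and 1446 and 1562 in insulin-led barcodes. The inhibitor of PCSK1 was therefore highest in the class in which Pcsk1 itself was lowest. The somatostatin-led and Ppy-led levels differed by only 1.05-fold in WT and 1.02-fold in GKO.

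Scg5, the gene for the PCSK2 partner 7B2, lies on chromosome 2 (113776362 to 113829121, minus strand). It did not follow Pcsk2 across the classes. Ppy-led barcodes were highest with 1565 CPM in WT and 1663 in GKO, glucagon-led barcodes held 1479.8 and 1616, somatostatin-led 1074 and 1162, and insulin-led 579 and 636. Per 100 Pcsk2 UMIs, Ppy-led barcodes held 77.2 Scg5 UMIs in WT (76.0 to 78.4) and 89.0 in GKO (87.5 to 90.5). The other classes held 32.3 to 42.5 in WT and 39.0 to 49.9 in GKO, with the lowest value in glucagon-led barcodes in both libraries.

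Cpe lies on chromosome 8 (64592542 to 64693054, minus strand) and was the most evenly distributed member on the scale of all UMIs. Glucagon-led barcodes held 1779 CPM in WT and 1651 in GKO, Ppy-led 1057 and 1054, somatostatin-led 1052 and 1039, and insulin-led 964 and 970.2. The Ppy-led and somatostatin-led levels did not differ beyond their counting intervals, and the highest class was 1.85-fold the lowest in WT and 1.70-fold in GKO.

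Pam lies on chromosome 1 (97795114 to 98095646, minus strand). Somatostatin-led barcodes held 587 CPM in WT and 514 in GKO, and glucagon-led barcodes held 558 and 508. Lower levels were found in Ppy-led barcodes, 317 and 289, and in insulin-led barcodes, 219.9 and 228. The class that makes the amidated pancreatic polypeptide thus had less Pam than 2 classes whose leading hormones are not amidated. Barcodes with Pyy and Iapp, whose products are also amidated, overlap these classes. Iapp was at 40020.2 and 40991 CPM in insulin-led and 27883 and 30832 in somatostatin-led barcodes, and Pyy was at 118457 and 117846 in Ppy-led and 53272 and 48774 in somatostatin-led barcodes. Glucagon-led barcodes held 21153 and 18482 CPM of Pyy, and 2 of the 7 basic pairs in the precursor that leads them, Gcg, followed a glycine.

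**Figure D1:**
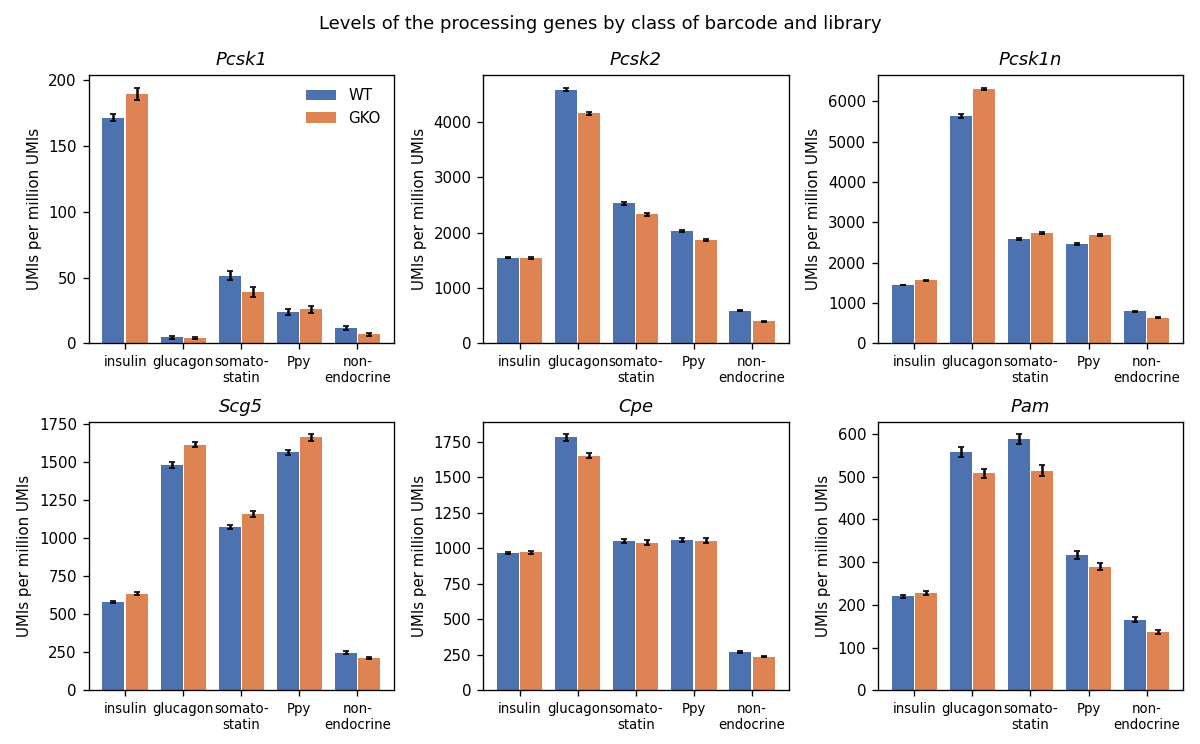
Levels of the 6 members in CPM (vertical axis, each panel with its own scale from 0) in the 4 hormone-led classes and nonendocrine barcodes of WT and GKO, with exact 95% Poisson intervals. Pcsk1 stood at 171 and 189 in insulin-led barcodes against 4.69 and 3.95 in glucagon-led barcodes, while Pcsk2, Pcsk1n and Cpe were highest in glucagon-led barcodes.

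These levels depended on what they were scaled to, because the 5 hormone genes took 61.3% of all UMIs in the insulin-led class of WT but 22.4% in the somatostatin-led class. With hormone UMIs taken out of the total, the non-hormone scale, insulin-led barcodes moved up the order for 5 of the 6 members, the exception being Pcsk1, where they were already first. Cpe was then 2488 in insulin-led and 2477 in glucagon-led barcodes of WT, and 2377 and 2305 in GKO, so that insulin-led barcodes led the order in both libraries. They led by very little, 1.005-fold in WT and 1.03-fold in GKO. Pcsk2 stood at 3986 and 3776 in insulin-led barcodes of WT and GKO, above somatostatin-led (3254 and 2988) and Ppy-led barcodes (3211 and 2913) and below glucagon-led ones (6376 and 5795). The highest Cpe level was then 1.84-fold the lowest in WT and 1.78-fold in GKO, while Pam was the most even member at 1.55-fold and 1.57-fold. Pam was 776.6 and 709 in glucagon-led, 757 and 659 in somatostatin-led, 568 and 558 in insulin-led and 501 and 450.3 in Ppy-led barcodes. For Pcsk1 the whole order of the hormone-led classes held on both scales and in both libraries, with insulin-led barcodes highest and glucagon-led lowest. For Pcsk2 and Pcsk1n only the first place, that of glucagon-led barcodes, held. For Scg5 the first place, that of Ppy-led barcodes, and the second, that of glucagon-led barcodes, held. On all UMIs the first place for Scg5 was a narrow one, 1.06-fold over glucagon-led barcodes in WT and 1.03-fold in GKO. With ribosomal protein and mitochondrial genes taken out of the total, glucagon-led barcodes came first for Scg5 in both libraries.

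The comparison of GKO with WT asked whether the transcripts of the processing machinery differ in islets without ghrelin. Differences were small. None of the 6 members lay past 1.2-fold in insulin-led barcodes, where 17.6% of 533 genes with at least 100 CPM did. In glucagon-led barcodes none did, beside 11.6% of 1053 genes. Pcsk1 there, with 68 and 74 UMIs, was past 1.2-fold and lower in GKO under 8 of 12 alternatives, down to a log2 ratio of −0.84 at a 25% limit for the leading hormone. Thinning was 1 of the 8, and in a separate draw of it the means were 0.0125 Pcsk1 UMIs per barcode in WT and 0.0159 in GKO. In Ppy-led barcodes none did, beside 11.6% of 791 genes. In somatostatin-led barcodes 1 of 6 did, beside 9.91% of 1231 genes. That member was Pcsk1, which at 51.3 and 39.2 CPM was under the limit of 100 set for the other genes.

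The genes of the convertase partners shared a direction. Pcsk1n was higher in GKO in all 4 hormone-led classes, with log2 ratios of 0.11 (0.097 to 0.13) in insulin-led, 0.16 (0.15 to 0.17) in glucagon-led, 0.087 (0.066 to 0.11) in somatostatin-led and 0.13 (0.11 to 0.15) in Ppy-led barcodes. Scg5 was also higher in all 4, at 0.14, 0.13, 0.11 and 0.088 in the same order. Both genes stayed above 0 in all 4 classes under each of 12 alternative settings, the lowest value being 0.014 for Pcsk1n in insulin-led barcodes with TMM scaling. The median over all genes tested was itself 0.11 in insulin-led barcodes, 0.033 in glucagon-led, 0.032 in somatostatin-led and 0.050 in Ppy-led, so that in insulin-led barcodes Pcsk1n exceeded that median by only 0.0058 and Scg5 by 0.029. In glucagon-led barcodes they exceeded it by 0.13 and 0.094, in somatostatin-led by 0.055 and 0.081 and in Ppy-led by 0.077 and 0.038. A ratio above 0 was common. It was found for 74.5% of the genes tested in insulin-led, 58.6% in glucagon-led, 59.7% in somatostatin-led and 64.9% in Ppy-led barcodes.

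Pcsk2 was lower in GKO in 3 classes, with log2 ratios of −0.14 (−0.16 to −0.13) in glucagon-led, −0.12 (−0.14 to −0.094) in somatostatin-led and −0.12 (−0.14 to −0.096) in Ppy-led barcodes. In insulin-led barcodes the ratio was −0.0027 (−0.017 to 0.012), which was 0.11 below the median of all genes there and became −0.078 on the non-hormone scale. Pam was lower in the same 3 classes, by −0.14 (−0.18 to −0.093), −0.19 (−0.24 to −0.14) and −0.13 (−0.19 to −0.076). In somatostatin-led barcodes Pam ran from −0.51 to −0.087 over 12 alternatives and was past 1.2-fold under 1 of them. In insulin-led barcodes Pam was at 0.050 (0.012 to 0.089), which became −0.025 on the non-hormone scale and −0.047 with TMM scaling. Cpe was at −0.11 (−0.13 to −0.084) in glucagon-led barcodes, and its interval held 0 in the other 3 classes, with a sign in insulin-led barcodes that went from 0.0092 to −0.066 on the non-hormone scale.

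Pcsk1 ratios lay on opposite sides of 0 in different classes, a difference that was not tested. In insulin-led barcodes the log2 ratio was 0.14 (0.10 to 0.19), with 15259 UMIs in WT and 6212 in GKO, and it was 0.069 on the non-hormone scale. In somatostatin-led barcodes it was −0.39 (−0.56 to −0.22), with 858 and 430 UMIs. Glucagon-led barcodes, −0.25 (−0.74 to 0.25), and Ppy-led barcodes, 0.12 (−0.084 to 0.32), had intervals that held 0. The somatostatin-led difference was 0.0045 when only barcodes with at least 25% somatostatin were used, which left 106 in WT and 90 in GKO. Markers of other cell types also moved between the libraries. In somatostatin-led barcodes the 5 acinar markers summed to 389 CPM in WT and 236 in GKO and the 6 activated stellate markers to 4.67 and 42.7, and median mitochondrial shares were 2.70% and 3.07%. The acinar markers summed to 353 CPM in WT and 69.6 in GKO in insulin-led and to 377 and 173 in glucagon-led barcodes. In Ppy-led barcodes they summed to 309.8 and 188, and the activated stellate markers to 41.2 and 145. Their part in the differences between libraries, for Pcsk1 and the other 5 members alike, was not tested.

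**Figure D2:**
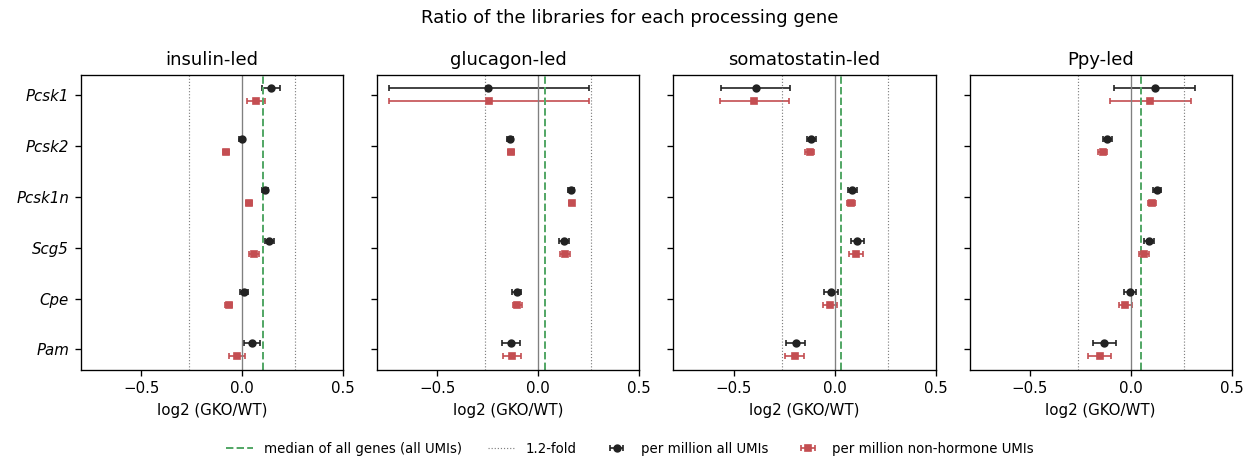
Log2 ratio of GKO to WT (horizontal axis) for the 6 members in each hormone-led class, on the scale of all UMIs (circles) and of non-hormone UMIs (squares), with exact 95% intervals for counting error; dashed lines mark the median of all genes and dotted lines 1.2-fold. Pcsk1n and Scg5 lay right of 0 in all 4 panels on both scales. Pcsk2 and Pam lay left of it in the glucagon-led, somatostatin-led and Ppy-led panels on both scales. In the insulin-led panel Pcsk2 was at −0.0027 on all UMIs and −0.078 on non-hormone UMIs, and Pam at 0.050 and −0.025. Pcsk1 in somatostatin-led barcodes, at −0.39 and −0.40, was the only member past 1.2-fold.

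Ratios between members need no total. Their log2 ratio of GKO to WT is the difference between the log2 ratios of the members given above. Their directions therefore follow from those values and are not separate support. Per 100 Pcsk2 UMIs, Pcsk1n gave 123 in WT (122 to 124) and 152 in GKO (151 to 153) in glucagon-led barcodes. The log2 ratio was 0.30 (0.28 to 0.32, by a normal approximation). Pcsk1n gave 122 and 144 in Ppy-led, 102 and 117 in somatostatin-led and 93.6 and 101.4 in insulin-led barcodes, with log2 ratios of 0.25, 0.20 and 0.11. The GKO value was the higher in all 4 classes. For Scg5 per 100 Pcsk2 UMIs the values were 32.3 and 39.0 in glucagon-led, 42.5 and 49.9 in somatostatin-led, 77.2 and 89.0 in Ppy-led and 37.5 and 41.3 in insulin-led barcodes, also higher in GKO in all 4. For Cpe and Pam against Pcsk2 the log2 ratios were smaller, from −0.076 for Pam in somatostatin-led to 0.11 for Cpe in Ppy-led barcodes. With 1 pool per genotype, a difference between these pools of mice or their handling and a difference due to genotype cannot be told apart.

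**Figure D3:**
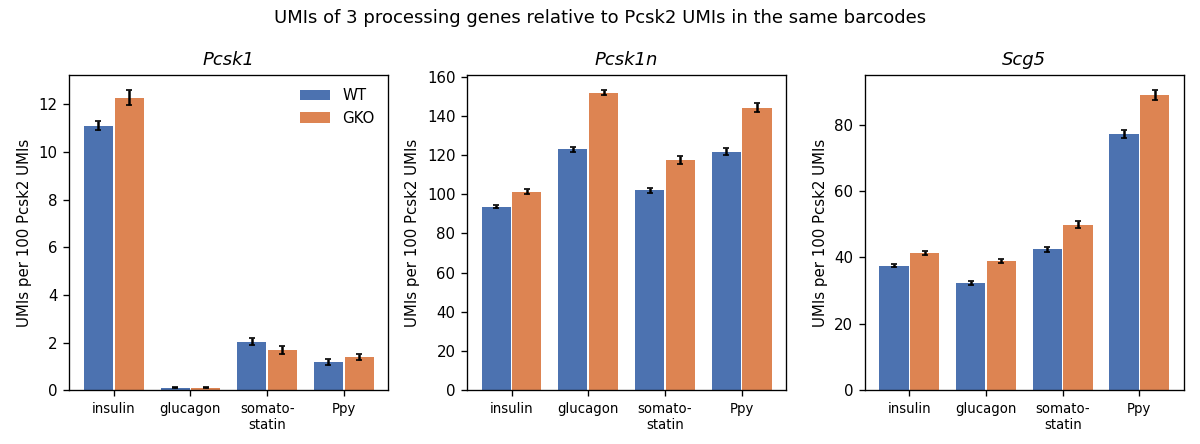
UMIs of Pcsk1, Pcsk1n and Scg5 per 100 Pcsk2 UMIs (vertical axes from 0) in the hormone-led classes of WT and GKO, with exact 95% intervals. Pcsk1 per Pcsk2 was 11.1 and 12.3 in insulin-led barcodes and at most 2.03 elsewhere, and the bars for Pcsk1n and Scg5 were higher in GKO in all 4 classes.

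Within the insulin-led class the members separated by how much insulin a barcode held. From barcodes with 10 to 25% insulin (53 in WT, 37 in GKO) over those with 25 to 60% (942 and 388) to those above 60% (1270 and 447), Pcsk1 on the non-hormone scale went from 186 to 312 to 576 in WT and from 268 to 354 to 599.5 in GKO. Cpe went from 1536 to 1998 to 2989 in WT and from 1434 to 1972 to 2904 in GKO. Pcsk2 went from 3052 to 3554 to 4432 and from 3140.4 to 3377 to 4258. These 3 enzymes that act on proinsulin thus made up a larger part of the non-hormone transcripts where insulin was high, in both libraries. Pcsk1n, Scg5 and Pam did not follow. In WT they stood at 4156, 1503 and 589.8 in the lowest insulin range and at 3663, 1499.7 and 574 in the highest. On the scale of all UMIs the picture was different, with Pcsk1n at 3031, 1788 and 1191 over the 3 ranges in WT and Cpe at 1120.3, 945 and 972. Barcodes with another hormone at 2% or more were 75.5% of the lowest range in WT and 1.10% of the highest, and the part they play in the trend was not tested.

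The difference between libraries was not even across these ranges. Above 60% insulin the log2 ratio of GKO to WT for Scg5 was 0.16 (0.13 to 0.20) on the scale of all UMIs and 0.11 (0.079 to 0.14) on the non-hormone scale. Between 25 and 60% insulin it was 0.022 (−0.012 to 0.057) and −0.0079 (−0.042 to 0.027). At 10 to 25% insulin it was 0.13 (0.024 to 0.24) and 0.16 (0.055 to 0.27). Pcsk1n was at −0.058 (−0.13 to 0.0084), 0.048 (0.026 to 0.070) and 0.10 (0.082 to 0.13) from the lowest to the highest range on the scale of all UMIs. On the non-hormone scale it was at −0.027 (−0.094 to 0.040), 0.018 (−0.0039 to 0.039) and 0.051 (0.029 to 0.072). For Pcsk1 the values on all UMIs were 0.50 (0.21 to 0.79) at 10 to 25% insulin, 0.21 (0.14 to 0.29) at 25 to 60% and 0.11 (0.056 to 0.16) above 60%. On the non-hormone scale they were 0.53 (0.24 to 0.82), 0.18 (0.11 to 0.26) and 0.058 (0.0031 to 0.11). The lowest range rested on 53 WT and 37 GKO barcodes with 188 and 210 Pcsk1 UMIs at median depths of 19619 and 27713 UMIs. Another hormone held at least 2% of UMIs in 75.5% and 73.0% of these barcodes, and its part in the ratios was not tested.

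**Figure D4:**
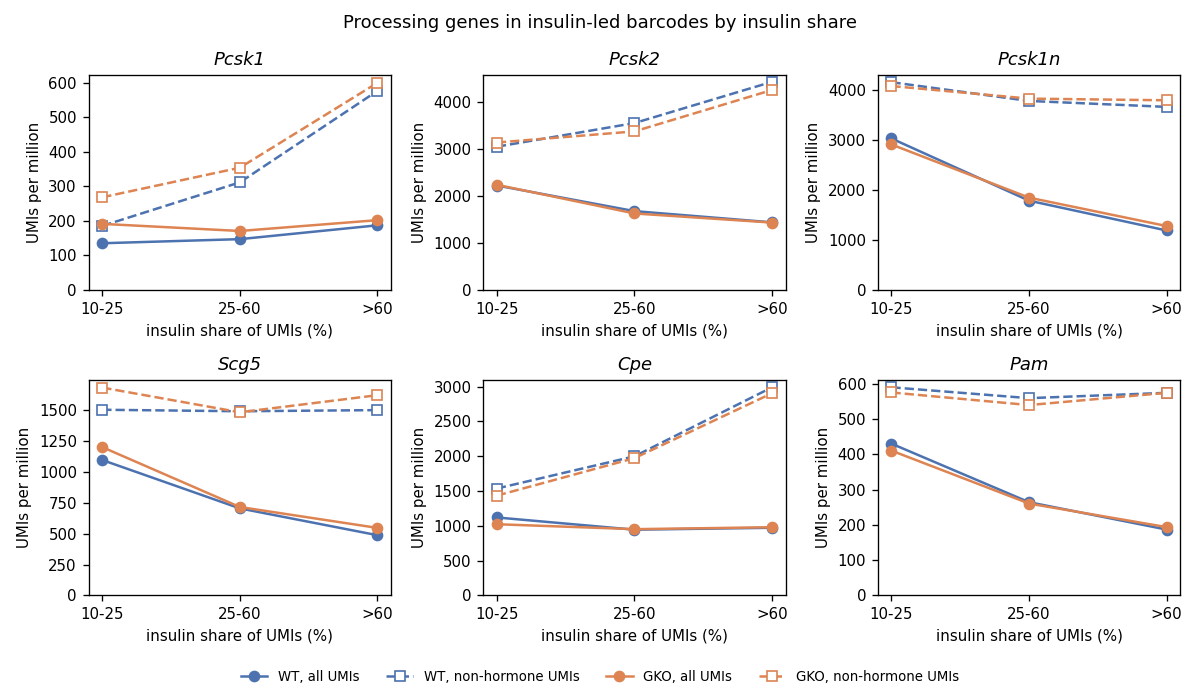
Members in insulin-led barcodes with 10 to 25%, 25 to 60% and over 60% insulin UMIs (horizontal axis), as CPM of all UMIs (filled, solid) and of non-hormone UMIs (open, dashed) in WT and GKO. On the non-hormone scale Pcsk1, Pcsk2 and Cpe climbed across the ranges, Pcsk1 from 186 to 576 in WT, while Pcsk1n, Scg5 and Pam stayed level or lay slightly lower.

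Spread between barcodes of 1 class was examined at 5000 UMIs per barcode. In insulin-led barcodes of WT the median was 1 Pcsk1, 7 Pcsk2, 7 Pcsk1n, 4 Cpe, 3 Scg5 and 1 Pam UMIs. For Pcsk1n the range from the 5th to the 95th percentile was 2 to 17, with a variance 3.26 times the mean of 7.66 UMIs. For Pcsk1 and Cpe the variances were 1.23 and 1.30 times means of 0.890 and 4.78. Among the hormone-led classes the largest such ratio was that of Pcsk1n in glucagon-led barcodes. Its variance was 6.70 times its mean of 30.7 UMIs in WT and 7.24 times its mean of 34.4 in GKO. At an equal relative spread this ratio rises with the mean, so it does not rank genes or classes of unlike mean by their spread. Across insulin-led barcodes Pcsk1n and Scg5 correlated with a Pearson r of 0.37 (n = 2258 barcodes of the WT library), Pcsk2 and Pcsk1n with 0.29, and Pcsk1 and Pcsk2 with 0.055. These points share a library and a fixed total. Because each barcode was thinned to the same total, more insulin leaves less for other genes, and Pcsk1n had an r of −0.51 with insulin UMIs while Pcsk1 had 0.074 and Cpe −0.082.

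Outside the hormone-led classes, 4 of the 6 members lay past 1.2-fold, all lower in GKO, beside 35.3% of 1597 genes with at least 100 CPM. Of the 5 members that reached that limit, 3 lay past 1.2-fold, and Pcsk1 was under it. Levels were 589 CPM in WT and 401 in GKO for Pcsk2, 801 and 641 for Pcsk1n, 166 and 135 for Pam, and 11.8 and 6.96 for Pcsk1. Nonendocrine barcodes are a mixture that includes endocrine cells, such as those rich in Ghrl, and their makeup differed. By marker genes, endothelial barcodes numbered 574 and 429 in WT and GKO, activated stellate 273 and 628, quiescent stellate 171 and 313, macrophage 203 and 458, and ductal 86 and 113, while 221 and 303 were not assigned. Most Pcsk2 UMIs came from the last group, in which its level was 2504 and 1435 CPM beside a hormone share of 6.74% and 5.24%. In macrophage barcodes the tenth of barcodes with the most held 95.6% and 96.7% of all Pcsk2 UMIs.

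Cpe was also detected in stromal barcodes. Quiescent stellate barcodes held 406 Cpe CPM in WT and 451 in GKO, against 91.8 and 82.3 in macrophage barcodes. Set against the hormone UMIs in the same barcodes, that was 42.0 and 43.0 per 1000 in quiescent stellate barcodes and 5.89 and 5.48 in macrophage barcodes. A Cpe UMI was seen in 70.8% (63.3 to 77.4) and 82.4% (77.8 to 86.5) of quiescent stellate barcodes at median depths of 4386 and 4525 UMIs, but in 27.1% and 19.9% of macrophage barcodes at 10443 and 8993. Pcsk2 in the same quiescent stellate barcodes was only 33.4 and 69.2 CPM. Activated stellate barcodes were intermediate for Cpe, at 185 and 151 CPM and 54.6% and 49.7% of barcodes.

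Pam had another distribution among the stromal classes. Activated stellate barcodes held 170.2 CPM in WT and 169 in GKO and endothelial barcodes 122 and 93.6, against 44.6 and 30.3 in macrophage barcodes. At least 1 Pam UMI was seen in 71.8% and 65.1% of activated stellate and 51.6% and 48.5% of endothelial barcodes, but in 12.3% and 9.61% of macrophage barcodes, which were the deeper ones at medians of 10443 and 8993 UMIs against 9690 and 8648.5 in activated stellate and 7004.5 and 7284 in endothelial barcodes. Cpe in endothelial barcodes, at 62.0 and 29.8 CPM, did not exceed its macrophage level. Pcsk2, Pcsk1n and Scg5 showed no class of stromal barcodes with a detected share above the macrophage share in both libraries without thinning. At 5000 UMIs per barcode Pcsk1n was found in 20.3% and 22.2% of activated stellate and 19.8% and 22.1% of macrophage barcodes, with overlapping intervals. Pcsk1 was then found in 3 of 62 quiescent stellate barcodes in WT, 4.84% (1.01 to 13.5), and in 5 of 122 in GKO, 4.10% (1.34 to 9.31). These shares were above the macrophage shares of 0% and 1.16% in value, with overlapping intervals.

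**Figure D5:**
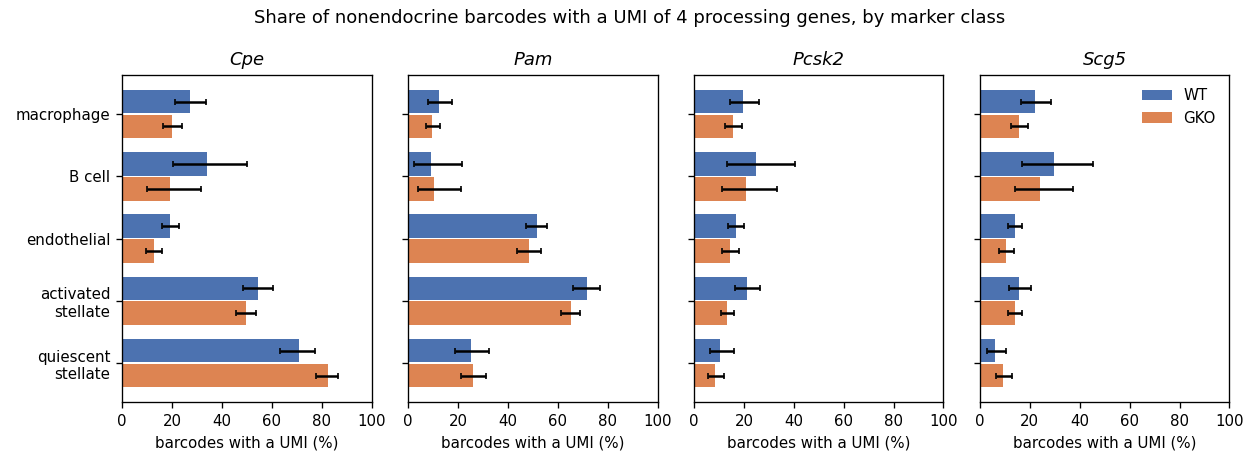
Percentage of nonendocrine barcodes with at least 1 UMI (horizontal axis) of Cpe, Pam, Pcsk2 and Scg5 by marker class in WT and GKO, with exact 95% binomial intervals and without thinning. Cpe reached 70.8% and 82.4% in quiescent stellate barcodes and Pam 71.8% and 65.1% in activated stellate barcodes, while Pcsk2 stayed near or below its macrophage values of 19.7% and 15.7% except in the smaller B cell class.

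Barcodes rich in Ghrl itself were few, 6 in WT and 1 in GKO with at least 100 Ghrl UMIs, and all 7 fell into the nonendocrine class, as none of the 4 islet hormones led in them. They were looked at after their values were known. Ghrelin is cut from its precursor by PCSK1. In the WT barcodes Ghrl took 8.42 to 40.9% of UMIs, and Pcsk1 was seen in each, with 3, 8, 5, 4, 8 and 9 UMIs. The matching Pcsk2 counts were 4, 76, 8, 4, 10 and 12, so that 5 barcodes held few Pcsk2 UMIs and 1 held many. Summed over the 6, Pcsk1 was at 229.8 CPM (162 to 317), an interval that holds the insulin-led level of WT, and Pcsk2 at 708 (584 to 850.4), below each hormone-led class. Both comparisons are on the scale of all UMIs. On the non-hormone scale the insulin-led Pcsk1 level of WT was 442, and no such level was computed for the Ghrl barcodes. Without the barcode that held 76, Pcsk2 was at 328 (232 to 449.9) and Pcsk1 per 100 Pcsk2 UMIs was 76.3 instead of 32.5. Pcsk1n was at 4955 (4618 to 5312) and Scg5 at 1739 (1541 to 1955) over the 6. The 1 barcode in the GKO library held 276 of the 280 Ghrl UMIs of that library, with 12 UMIs of Pcsk1 and 4 of Pcsk2, and whether it came from a GKO mouse was not tested.

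Other genes of precursor processing were counted from lists of 37 genes. Of those with at least 20 UMIs, 6 of 35 were past 1.2-fold higher and 1 lower in GKO in insulin-led barcodes, 3 and 2 of 33 in glucagon-led, 3 and 1 of 31 in somatostatin-led and 2 and 4 of 33 in Ppy-led barcodes. Over all genes with at least 100 CPM, a stricter limit, 17.6%, 11.6%, 9.91% and 11.6% were past 1.2-fold in these classes. Among those with at least 50 CPM, the largest ratio in insulin-led barcodes was that of Sec11c, a catalytic subunit of the signal peptidase that removes the leader of every secreted precursor. It stood at 257 CPM in WT and 320.0 in GKO, a log2 ratio of 0.31 (0.28 to 0.35), and at 0.24 on the non-hormone scale. The signal peptidase list had a median of 0.25 there with 2 of 5 genes past 1.2-fold, beside the median of 0.11 of all genes. These 2 were Sec11c and Spcs2, the latter at 0.265 and only just past the limit. On the non-hormone scale no gene of this list was past 1.2-fold, with Spcs2 at 0.19. The largest ratios elsewhere were 0.18 for the carboxypeptidase gene Cpn1 in glucagon-led barcodes, 98.6 and 112 CPM, and 0.22 for the proton pump subunit gene Atp6ap2 in Ppy-led barcodes, 112 and 130.2. In somatostatin-led barcodes it was −0.21 for Tpst2, a tyrosine sulfating enzyme, 61.7 and 53.4.

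The genes most like each member were sought over 18 profiles, 9 classes in each of the 2 libraries, among 6222 genes. Pcsk2 and Pcsk1n were the closest to each other, with a Pearson r of 0.99 on log2 levels. Scg5 was closest to Tmem27 (0.996) and Rundc3a (0.99), Pcsk1 to Wfs1 (0.88) and Ppp1r1a (0.86), Cpe to the synaptic vesicle gene Syp (0.94) and Pam to Mageh1 (0.95). Scgn was among the 3 closest genes of Pcsk2, Pcsk1n and Scg5. The profiles share their libraries, and the values describe these 18 sums only.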

How the data were processed

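Islets of 4 WT and 4 GKO mice were pooled by genotype, dispersed, sorted for live cells and run as 1 droplet 3′ library each. The authors aligned reads to mm10 with Cell Ranger (5.0.1 per the file headers) and down-sampled reads where required; the deposited matrices hold raw UMI counts per gene and barcode, before their removal of ambient RNA. Totals were 158067110 and 103511757 UMIs. From these counts, barcodes under 500 genes or over 10% mitochondrial UMIs were removed and the rest classed by leading hormone (at least 10% of UMIs) and UMIs were summed per class and library. With 1 library per genotype no test was run. Ratios carry exact 95% Poisson intervals for counting error only, and log2 ratios of member pairs carry intervals by a normal approximation. PCR, barcode-to-barcode and mouse-to-mouse variation are not covered. A member was counted past 1.2-fold; the background was all genes with at least 100 CPM (counts per 1000000 UMIs) in 1 library. Marker classes needed at least 5 UMIs of 1 marker list and 2 times those of the next. Doublets were kept; an alternative left out the 7.6% of barcodes with the highest score of a Scrublet-type simulation. Named genes were the 6 members, the listed processing gene with the largest ratio in each class among those with at least 50 CPM, and the 3 genes most like each member on log2(CPM + 1). Members and lists were chosen with earlier results of these data known. Ratios and intervals were tested on simulated data. Python 3.11.15, numpy 2.4.6, scipy 1.17.1, scikit-learn 1.9.0 and edgeR 4.0.16 in R 4.3.3 (TMM factors only) were used. Sequences and positions came from GENCODE annotation of GRCm38. The results for 2 marker genes are not reported here.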

Additional observations from a re-analysis of the deposited data

Results flagged for a closer look

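Pcsk1 and Pam had ratios of GKO to WT whose counting intervals lay on opposite sides of 0 in different hormone-led classes. The difference between the classes was not tested, since each genotype had 1 library. For Pcsk1 the log2 ratio was 0.14 in insulin-led and −0.39 in somatostatin-led barcodes, a difference of 0.53, and on the scale of non-hormone UMIs the difference was 0.47. For Pam the log2 ratio was 0.050 in insulin-led and −0.19 in somatostatin-led barcodes, a difference of 0.24, which was 0.17 on the scale of non-hormone UMIs, where both classes were below 0.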

How the results depend on the processing

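Of the single ratios recomputed under the alternatives, 261 stayed within the counting interval of the main ratio, 98 lay outside it and 1 was counted as reversed. Of the counts and orders 79 were within the limits and 15 were not. A reversal was counted only where the main ratio was past 1.2-fold. Without that condition, 7 of the 24 ratios in hormone-led classes changed sign under some alternative. They were Pcsk2 and Pam in insulin-led, Pcsk1 in somatostatin-led and Ppy-led, and Cpe in insulin-led, somatostatin-led and Ppy-led barcodes. The reversed value was Pcsk1 in somatostatin-led barcodes at a 25% limit for the leading hormone, 0.0045, with fewer barcodes left. Pam in somatostatin-led barcodes was past 1.2-fold under 1 alternative, at −0.51. In glucagon-led barcodes the number of members past 1.2-fold was 1 (Pcsk1) instead of 0 under 8 alternatives. These included a 25% limit, no barcodes with another hormone at 2%, no barcodes with a high doublet score, and a total without ribosomal protein and mitochondrial genes. The others were TMM, each barcode weighted equally, each barcode thinned to 5000 UMIs, and free RNA subtracted. Free RNA was taken as the mean UMIs per macrophage-marker or B cell-marker barcode and was subtracted equally from each barcode, whatever its depth. A small part of the macrophage barcodes held most of their Pcsk2 UMIs, so that mean is not an even background. In somatostatin-led barcodes the number was 0 at 1.5-fold, and in Ppy-led barcodes 1 after thinning (Pcsk1 at 0.71, while a separate draw gave 0.123 UMIs per barcode in WT and 0.114 in GKO). In nonendocrine barcodes it was 2 with every deposited barcode and 1 at 1.5-fold. Of the 12 orders of classes, 2 were those of the main scale without the 5 hormone genes in the total, 7 without ribosomal protein and mitochondrial genes and 2 with TMM. TMM shifted the median of all genes by −0.097 in insulin-led barcodes and the total without hormone genes by −0.075. The causes were not tested. No paired analysis was possible because each genotype has 1 library. Depth limits Pcsk1 most, with 68 and 74 UMIs in glucagon-led barcodes.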
